A study of Arabidopsis thaliana with 2 samples.

Results

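The chloroplast genome of Arabidopsis thaliana encodes the subunits NdhA to NdhK of the NADH dehydrogenase-like (NDH) complex, and the transcripts of these ndh genes were compared between ros1-1 and wild-type seedlings. The genes were taken as the chloroplast-encoded genes named ndh and a letter from A to K in the array annotation, each read by a probe set assigned to 1 gene, with a signal of at least 132.1 on 1 or both arrays. Of 10 such genes, 9 reached this signal and are called measured, out of 69 plastid genes and 13286 genes in all with a probe set of their own. The measured gene nearest to the limit was ndhK, still well above it, with signals of 867 in ros1-1 and 746 in wild type. The gene outside the limit was ndhF, with 84.2 in ros1-1 and 72.9 in wild type. ndhB has a copy in each arm of the inverted repeat of the chloroplast genome, and its probe set, which carries both gene entries, was not taken as a member.

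Total RNA came from whole seedlings aged 15 days, grown on MS medium at 22 °C with 16 h of light and 8 h of darkness, and biotin-labelled cRNA was hybridised to Affymetrix arrays. One array was from ros1-1, a mutant in the C24 background, and 1 array was from C24 wild type. ROS1 encodes a DNA glycosylase that removes methylated cytosines from nuclear DNA. The question was which transcripts differ when this enzyme is impaired. With 2 arrays in all there was nothing to test against, and every ratio below is the signal in ros1-1 over the signal in wild type on these arrays. ROS1 was not analysed here, so the genotype labels were not checked against it.

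The NDH complex sits in the thylakoid membrane, takes electrons from ferredoxin, passes them to plastoquinone and moves protons across the membrane. It works in cyclic electron flow around photosystem I and in chlororespiration, and it binds photosystem I in a supercomplex. The subunits are shared between genomes: the membrane arm and the core of the peripheral arm are encoded in the plastid, and many further subunits are encoded in the nucleus. Plastid ndh genes are read mainly as parts of long transcripts. The ndhC, ndhK and ndhJ genes form one transcription unit, and ndhH, ndhA, ndhI, ndhG, ndhE, psaC and ndhD form another, in that order, with the photosystem I gene psaC inside it. The ndhF gene is transcribed on its own, and many ndh transcripts are edited from C to U.

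All 9 measured ndh genes had a slightly higher signal in ros1-1 than in wild type, by 1.01-fold to 1.19-fold on the deposited scale, with ndhC below 0 on the log2 scale after quantile normalization and ndhC and ndhD below 0 after removal of an intensity trend. Their median log2 ratio was 0.14, with a range of 0.02 to 0.26 and an SD of 0.09 across the genes. Over all 14126 measured probe sets the median log2 ratio was -0.01, and 49.2% of them had a ratio above 0. Among the 4357 probe sets whose signals on both arrays lay within the range of the ndh genes, 53.1% had a ratio above 0. The 9 genes are not independent, since they lie in 2 transcription units and share the arrays and the plastid. None reached 2-fold, a size found higher in ros1-1 in 0.205% and lower in 0.241% of measured probe sets. None reached 1.5-fold, found higher in 1.85% and lower in 1.95%. All 9 were within 1.2-fold, a limit set after the values were seen, as were 73.3% of measured probe sets.

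These ratios are of the same size as the error that the arrays hold. In 18 probe sets of spiked hybridisation controls, the log2 ratios lay between -0.25 and 0.26, with a median of -0.02 and 7 above 0. Above the highest of them lay 0 of the 9 ndh genes, with ndhE level with it at 0.26. Of all measured probe sets, 12.9% had a ratio at least as high as that of ndhE. In 61 genes with several probe sets, the log2 ratios of probe sets of the same gene scattered with an SD of 0.19, which 4 of the 9 ndh genes exceeded. The lowest of these 4 was ndhI, and 17.9% of all measured probe sets had a ratio at least as high. Among probe sets in the signal range of the ndh genes, the SD of log2 ratios was 0.21. The controls and the probe sets of the same gene leave out differences between plants, extractions or labelling reactions. The SD of 0.21 is taken over ordinary genes, so it can hold such differences together with any effect of genotype. With 1 array per genotype these cannot be told apart. In whole seedlings, a different number of green cells and a different amount of RNA per cell cannot be told apart. Of the leaf markers, LHCB4.1 had a signal of 16264 in ros1-1 and 18035 in wild type, and RCA had 17658 in ros1-1 and 15226 in wild type, so both arrays carried RNA of photosynthetic tissue and the 2 markers differed in direction. Of the root markers, PYK10 had 13729 in ros1-1 and 13028 in wild type, EXPA18 had 373 in ros1-1 and 262 in wild type, and EXPA7 had 193 in ros1-1 and 154 in wild type. All 3 were higher in ros1-1, as the ndh genes were. The summed signal of the 2 of 6 listed leaf markers was 33922 in ros1-1 and 33261 in wild type, and that of the 3 of 4 listed root markers, almost all of it from PYK10, was 14296 in ros1-1 and 13445 in wild type. Their part in the ndh ratios was not tested.

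**Figure D1:**
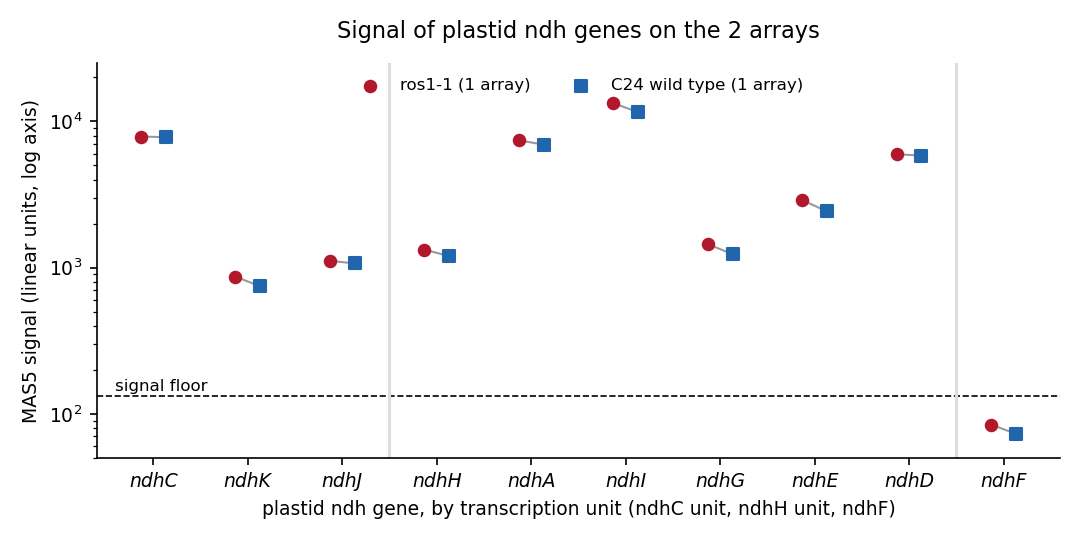
MAS5 signal (linear units on a log axis) of the 10 plastid ndh genes with a probe set of their own, grouped by transcription unit, with 1 array for ros1-1 (circles) and 1 for C24 wild type (squares). On the deposited scale the ros1-1 point is level with or slightly above the wild-type point in each of the 9 genes over the floor of 132.1 (dashed line), and ndhF lies below it in both genotypes.

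In the membrane arm, ndhE encodes a small membrane subunit and had a signal of 2894 in ros1-1 and 2422 in wild type. Its log2 ratio of 0.26 was the highest of the 9 genes, and 12.9% of all measured probe sets had a ratio at least as high. ndhG, which encodes another small membrane subunit, had a signal of 1447 in ros1-1 and 1236 in wild type, a log2 ratio of 0.23. ndhC, which encodes a small membrane subunit as well, had 7883 in ros1-1 and 7798 in wild type. Its log2 ratio of 0.02 was the lowest of the measured ndh genes, and the arrays were nearly level for it.

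The subunits NdhB, NdhD and NdhF are related to proton antiporters and form the proton-moving part of the membrane arm. Of their genes only ndhD was measured as a member, with a signal of 5957 in ros1-1 and 5843 in wild type and a log2 ratio of 0.03. ndhA encodes the membrane subunit at the junction with the peripheral arm and had a signal of 7432 in ros1-1 and 6939 in wild type, a log2 ratio of 0.10. The median log2 ratio of the 5 measured membrane-arm genes was 0.10.

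In the peripheral arm, which carries the iron-sulfur clusters on the way to plastoquinone, ndhI had a signal of 13324 in ros1-1 and 11575 in wild type. NdhI binds iron-sulfur clusters, and the log2 ratio of its gene was 0.20. ndhK, whose product binds the last cluster of the chain, had 867 in ros1-1 and 746 in wild type, a log2 ratio of 0.22. ndhH, whose product lies at the plastoquinone site, had 1326 in ros1-1 and 1200.0 in wild type, a log2 ratio of 0.14. ndhJ, encoding a further subunit of this arm, had 1114 in ros1-1 and 1067 in wild type, a log2 ratio of 0.06. The median of these 4 genes was 0.17, against 0.10 in the membrane arm, and the difference was not tested. Apart from the limit of 132.1, signals are not compared between genes, because each probe set binds its target with its own strength.

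Within the ndhH unit, the log2 ratios ran 0.14 in ndhH, 0.10 in ndhA, 0.20 in ndhI, 0.23 in ndhG and 0.26 in ndhE, and ended at 0.03 in ndhD. The embedded gene psaC, for the iron-sulfur subunit of photosystem I, had a signal of 2428 in ros1-1 and 2034 in wild type, and its log2 ratio of 0.26 was level with that of its neighbour ndhE. The step between psaC and ndhD, the last gene of the unit, was the largest between adjacent genes there. In the ndhC unit the log2 ratios were 0.02 for ndhC, 0.22 for ndhK and 0.06 for ndhJ, so the middle gene had the highest. The median was 0.17 in the 6 genes of the ndhH unit and 0.06 in the 3 genes of the ndhC unit.

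**Figure D2:**
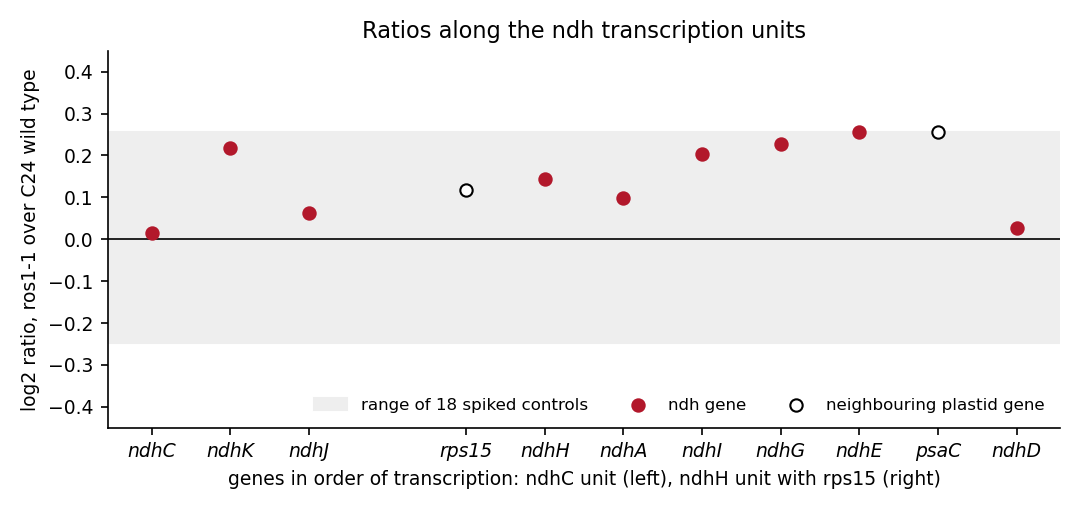
Log2 ratio of signal in ros1-1 over C24 wild type for the measured ndh genes (filled) and for psaC and rps15 (open), in order of transcription, with the ndhC unit on the left and the ndhH unit on the right. The grey band is the range of the spiked controls, from -0.25 to 0.26, and all 9 ndh genes lie inside it and, on the deposited scale shown, above 0; ndhC and ndhD fell on the other side of 0 in some rescalings.

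Outside the complex, the remaining plastid genes did not share one direction. Of 59 measured plastid genes other than ndh, 25 had a ratio above 0 and 34 below 0, with a median log2 ratio of -0.05 and a range of -0.87 to 0.56. The ndh median was 0.19 above that median on the log2 scale, and the difference could not be tested with 1 array per genotype. The SD of the log2 ratios was 0.09 in the ndh genes and 0.29 in the remaining plastid genes. The lowest ratio was that of ycf3, an assembly factor gene of photosystem I, with a signal of 1056 in ros1-1 and 1931 in wild type. The highest was that of psbN, which is needed for assembly of photosystem II and had 632 in ros1-1 and 429 in wild type.

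By class, the 5 photosystem I genes had a median log2 ratio of 0.13, with 3 above 0, and the 6 ATP synthase genes had 0.02, with 4 above 0. The 15 photosystem II genes had a median of -0.12, with 4 above 0, and the 6 cytochrome b6f genes had -0.21, with 1 above 0. The 15 ribosomal protein genes had a median of -0.06, with 6 above 0. All 4 subunit genes of the plastid-encoded RNA polymerase, which transcribes much of the plastid genome, had a lower signal in ros1-1, with a median of -0.43. Among them rpoC2, rpoC1 and rpoB are adjacent in gene order, so the 4 are not independent. Over all measured probe sets, 49.2% had a ratio above 0. The log2 ratio of rbcL, for the large subunit of Rubisco, was 0.22. The 7 plastid genes of other functions, with ycf3 among them, had a median of 0.09, with 6 above 0.

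**Figure D3:**
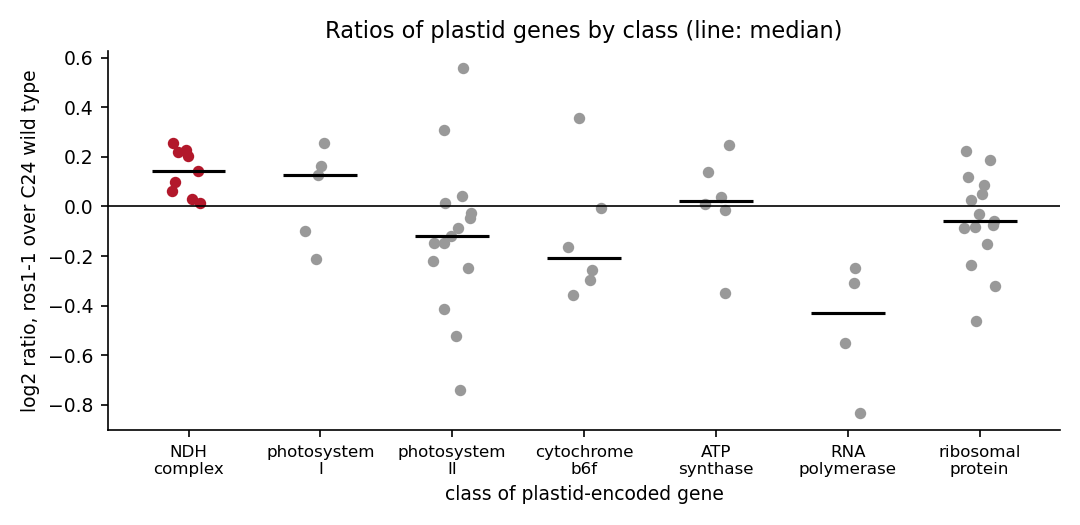
Log2 ratio of signal in ros1-1 over C24 wild type for the measured plastid genes of the classes drawn, with a line at the class median. The 7 genes of other functions, with ycf3 among them, and rbcL are not drawn. The 9 ndh genes lie between 0.02 and 0.26, while the 15 photosystem II genes spread from -0.74 to 0.56 and the 4 RNA polymerase genes from -0.83 to -0.25.

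In gene order along the plastid chromosome, the measured ndh genes lay in 2 stretches in which every measured gene with a probe set of its own had a ratio above 0 on the deposited scale. One stretch ran over 11 genes, from ndhJ to petA, and held ndhJ, ndhK and ndhC, with a median log2 ratio of 0.22. Next to ndhC in it were atpE, with 15708 in ros1-1 and 15617 in wild type and a log2 ratio of 0.01, and atpB, with a log2 ratio of 0.25. The other stretch ran over 10 genes, from rpl32 to rps15, and held the 6 measured genes of the ndhH unit, with a median of 0.13. It included ccsA, a cytochrome c assembly gene with a log2 ratio of 0.09, and rps15, a ribosomal protein gene at 0.12, on either side of the ndhH unit.

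The stretch before ndhJ, of 16 genes from atpH to rps4, had ratios below 0 throughout, with a median of -0.25, and held 0 ndh genes. A further stretch of 7 genes from psbH to rpl16 was below 0 as well, with a median of -0.15. These stretches were picked out after the values were seen. After quantile normalization, 9 of the 11 genes from ndhJ to petA and 10 of the 10 from rpl32 to rps15 were above 0, and after removal of an intensity trend 9 and 9 were. The 16 genes from atpH to rps4 and the 7 from psbH to rpl16 were below 0 under both.

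**Figure D4:**
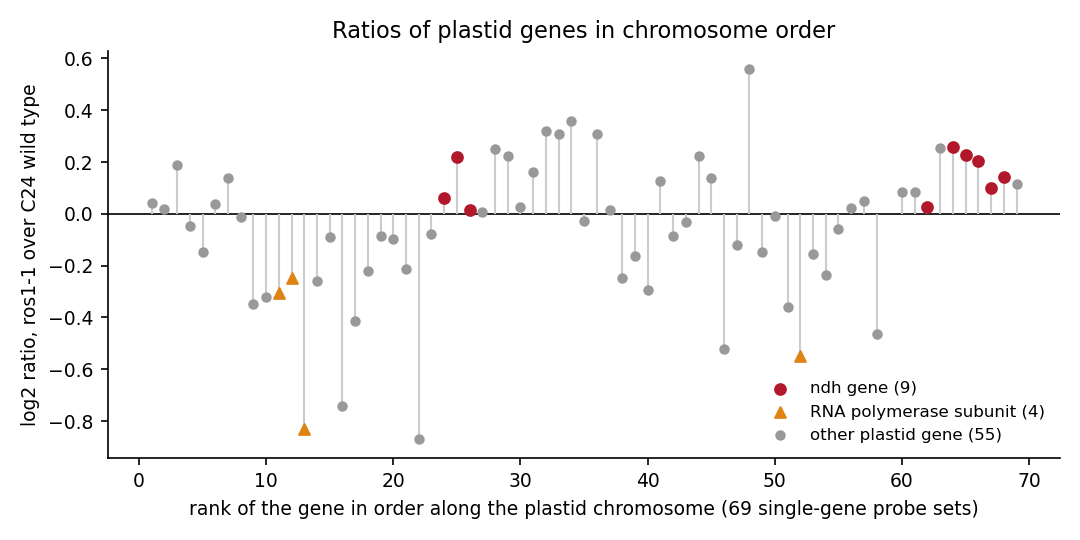
Log2 ratio of signal in ros1-1 over C24 wild type for 68 measured plastid genes, by rank in gene order along the plastid chromosome, with ndh genes as red circles, RNA polymerase genes as orange triangles and the remaining genes in grey. On the deposited scale the ndh genes lie in 2 stretches above 0, ndhC and ndhD so close to it that some rescalings placed them below, and the 16 genes from atpH to rps4 lie below 0.

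Nuclear genes for the same complex were thinly covered, with 9 of 32 listed genes having a named probe set and 8 measured. Of 17 listed nuclear subunit genes, 3 were measured, and their median log2 ratio was -0.21. NdhS, the nuclear gene of a subunit at the ferredoxin-binding site, had a signal of 1386 in ros1-1 and 1879 in wild type, a log2 ratio of -0.44. NdhN, for a subunit of the peripheral arm, had 1920.0 in ros1-1 and 2225 in wild type, a log2 ratio of -0.21. NdhL, for a membrane-bound subunit, had 3014 in ros1-1 and 2816 in wild type, a log2 ratio of 0.10. NdhS and NdhN thus had lower signals in ros1-1, and NdhL a higher one.

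Of the assembly factors, CRR41, which acts in building the peripheral arm, had a signal of 564 in ros1-1 and 374 in wild type. Its log2 ratio of 0.59, or 1.51-fold, was the largest of these 8 measured nuclear genes, and a 1.5-fold higher signal was found in 1.85% of measured probe sets. CRR42, for the same step, had 448 in ros1-1 and 441 in wild type, and PAM68L, which acts on the membrane arm, had 815 in ros1-1 and 812 in wild type, so both were level.

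Of the listed RNA editing factors, 2 were measured and both were level. CRR21, which edits ndhD, had a signal of 321 in ros1-1 and 318 in wild type, and CRR22, which edits several plastid transcripts, had 161 in ros1-1 and 156 in wild type. CRR28, a further editing factor, lay below the floor in both genotypes, at 106.5 in ros1-1 and 128.0 in wild type, and CRR4, which edits ndhD, had no named probe set. PGRL1B, of the other route of cyclic electron flow, had 935 in ros1-1 and 810 in wild type, a log2 ratio of 0.21. The 2 linkers to photosystem I, LHCA5 and LHCA6, and the sigma factor SIG4, which serves ndhF transcription, lacked a probe set with their name and were not analysed here.

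**Figure D5:**
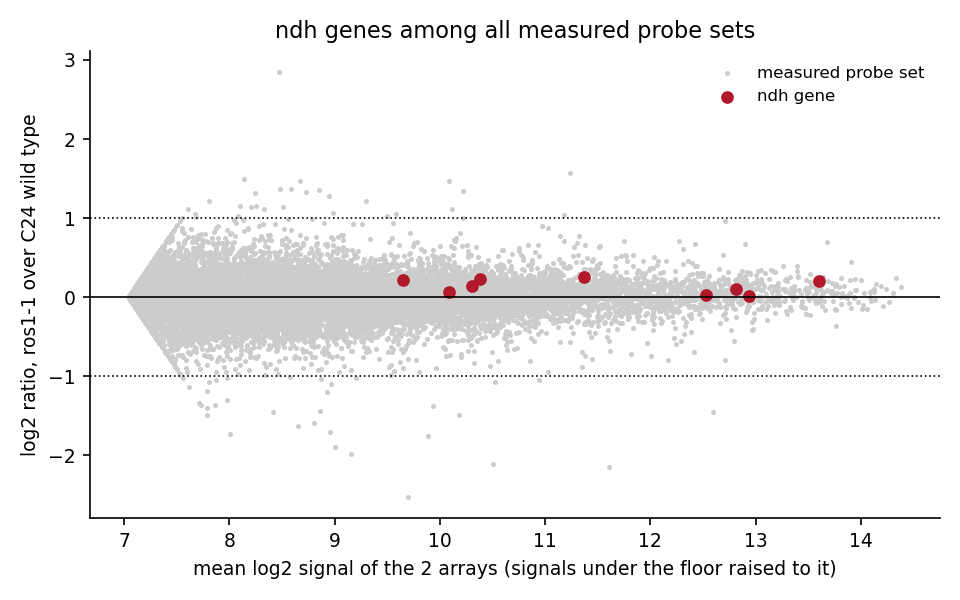
Log2 ratio of signal in ros1-1 over C24 wild type against mean log2 signal for the 14126 measured probe sets (grey) and the 9 ndh genes (red), with dotted lines at 2-fold. The ndh genes lie within the main cloud, well inside the 2-fold lines.

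The direction of the genes nearest to 0 depended on the scaling. After quantile normalization the log2 ratio of ndhC was -0.06 and that of ndhD was 0.00081, and after removal of an intensity trend they were -0.03 and -0.01. The other 7 measured ndh genes had ratios above 0 under both. Arrays of this kind are usually labelled from a primer that binds poly(A) tails, which most plastid transcripts lack in stable form, so the share of the ndh RNA that was read is unknown.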

How the data were processed

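Total RNA of 2 seedling samples was measured on 1 array each, with genotypes taken from the labels. The authors deposited an intensity for each probe set on a linear scale; MAS5 is the tool that the submitters' processing notes name. Its version, target and present calls: not given in the sources used here. Both arrays had a trimmed mean of 500.04 (2% off each end), so no further scaling was done. Of 22810 probe sets, 64 controls were set aside. Of the rest, 13513 had 1 gene in the platform annotation, 503 had several and 8730 had none. Plastid genes and their order came from the TAIR10.1 gene table, which 13436 of the 13513 matched; its coordinates are not used. No table of sequences was used.

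Signals under the 40th percentile of both arrays, 132.1, were raised to it, and a probe set was measured when its brighter array reached this floor. The log2 ratio is ros1-1 minus wild type. A gene took its brightest single-gene probe set; each of the 69 plastid genes had 1. The scatter of log2 ratios between probe sets of 1 gene, over genes with several above the floor on both arrays, served as the error and as the margin for calling a value moved. The number of arrays limits the precision.

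All ndh genes with a probe set of their own and all measured genes of the nuclear NDH and cyclic electron flow lists are named, with operon neighbours, rbcL and the highest and lowest plastid ratios. rbcL, ccsA, atpE and atpB were added after their values were seen. Members and lists were chosen with earlier results of these data known. The alternatives were floors at the 25th and 60th percentiles, an offset in place of the floor, median centring, quantile normalization, a lowess trend (span 0.3), averaging the probe sets of each gene, plain _at probe sets, a 1.5-fold threshold and centring on the remaining plastid genes. Work was done in Python 3.11.15 with pandas 2.3.3, numpy 2.4.6 and statsmodels 0.14.6, and the steps were tested on simulated data.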

Additional observations from a re-analysis of the deposited data

How the results depend on the processing

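The median log2 ratio of the measured ndh genes lay between 0.13 and 0.17 under the alternatives, and its distance above the median of the remaining plastid genes between 0.18 and 0.23. The nuclear subunit median lay between -0.24 and -0.20. None of the 9 measured single-gene ndh members reached 2-fold or 1.5-fold under the settings run. The number of ndh genes below 0 was 0 as deposited, 1 after quantile normalization (ndhC) and 2 after removal of the intensity trend (ndhC and ndhD). Of 81 values of the 9 genes under the alternatives, 78 were above 0 and 3 below, and the largest move was 0.07; centred on the remaining plastid genes, the 9 ratios lay between 0.06 and 0.31. A floor set at the 25th percentile made ndhF measured, at 0.21. Each ndh member has 1 probe set, a plain _at one, so averaging probe sets and keeping plain _at ones could not move the ndh values. The alternative floors, at signals of 54.4 and 325, lay under all signals of the 9 genes, the lowest being 746 for ndhK in wild type. Neither floor could therefore move the ratios of these 9 genes. Under these averaging, plain _at and floor settings the values of the 9 genes repeat the main ones, all above 0. An offset cannot change which array is higher, and both centrings raised every ratio, so these settings could not put a gene below 0 either. Only quantile normalization and removal of the intensity trend could do so, and all 3 values below 0 came from them. The rest of the 81 values does not test the direction. No paired analysis was possible because each genotype has 1 array. Precision is limited by the unmeasured differences between plants and preparations.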

Other observations

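Probe sets that carry both inverted-repeat copies of a plastid gene were not members, and were looked at after the other values were seen. The probe set with both entries under the symbol ndhB had a signal of 340.4 in ros1-1 and 224 in wild type, a log2 ratio of 0.60 or 1.52-fold. This was larger than the ratio of any of the 9 measured ndh genes, and its signals lay closer to the floor of 132.1 than theirs. The probe set of rps7, a ribosomal protein gene in the same repeat, had 11253 in ros1-1 and 8541 in wild type, a log2 ratio of 0.40. Both probe sets of rps12, a ribosomal protein gene with a part in this repeat, were above 0, at 0.21 and 0.15. Of 8 such probe sets for 7 genes, 7 were measured and 5 had a ratio above 0, with rpl2 at -0.13 and rpl23 at -0.12. Both probe sets of rps12 are among these 5. For comparison, 49.2% of all measured probe sets had a ratio above 0, and 1.85% were at least 1.5-fold higher in ros1-1.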
